A study of Homo sapiens with 9 samples.

Results

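The BCL2 family of apoptosis regulators was examined through 10 of its genes, chosen by symbol as the pro-survival members BCL2, BCL2L1 and MCL1, the effectors BAX and BAK1, and the BH3-only members BCL2L11, BBC3, PMAIP1, BID and BAD. All 10 symbols were found among the 30017 gene rows of the count table, and all 10 were among the 12712 genes with enough counts to be tested. RNA-seq had been performed on MOLM13, a human acute myeloid leukemia cell line, after lentiviral delivery of a short hairpin RNA (shRNA) from a GFP-marked pLKO vector. DDX41, the gene knocked down, encodes a DEAD-box RNA helicase and is mutated in inherited myeloid malignancy. The groups were sh-Control (cells with a control hairpin), shDDX41 #1 and shDDX41 #2 (cells with either of a pair of hairpins against DDX41), each with 3 libraries lettered A, B and D. Cells of every group, the controls included, had been infected with virus made in 293T cells and were sorted by flow cytometry on day 4 after transduction, with a gate that is not given in the sources used here. A single cell line stood for all groups, and nothing says whether the letters mark separate transductions, so p-values measure the spread between these libraries, which may be technical.

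Proteins of the BCL2 family decide whether the outer membrane of the mitochondrion is permeabilized, the step that releases cytochrome c and starts the caspase cascade. BAX and BAK1 form the pores, the pro-survival members hold them and their activators in check, and the BH3-only members signal damage by inserting a short helix, the BH3 domain, into a groove of the other proteins. Myeloid leukemia cells commonly depend on BCL2 or MCL1 for survival, and BBC3 and PMAIP1 are known to be induced by cell stress.

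The BH3 stretch is shown because it is the sequence that defines the family and through which its members bind each other. Below are 30 coding bases of each gene, written 5′ to 3′ on the coding strand from GENCODE v29 transcripts (build GRCh38), with capitals on the codon of the conserved leucine and on the adjoining codons of a small residue and aspartate. The first 5 are the members with several BH domains and the last 5 are the BH3-only members.
BCL2 (chr18:63318355-63318384, minus strand, exon 1 of 2): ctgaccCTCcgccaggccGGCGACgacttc
BCL2L1 (chr20:31721928-31721957, minus strand, exon 1 of 2): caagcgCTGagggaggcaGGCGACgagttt
MCL1 (chr1:150578871-150578900, minus strand, exon 1 of 3): gagaccTTAcgacgggttGGGGATggcgtg
BAX (chr19:48955781-48955810, plus strand, exon 3 of 6): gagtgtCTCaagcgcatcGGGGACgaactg
BAK1 (chr6:33575393-33575422, minus strand, exon 4 of 6): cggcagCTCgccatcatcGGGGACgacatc
BCL2L11 (chr2:111150097-111150126, plus strand, exon 4 of 5): caagagTTGcggcgtattGGAGACgagttt
BBC3 (chr19:47226585-47226614, minus strand, exon 3 of 4): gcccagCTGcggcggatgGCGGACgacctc
PMAIP1 (chr18:59902667-59902696, plus strand, exon 2 of 2): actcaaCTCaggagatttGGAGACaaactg
BID (chr22:17739421-17739450, minus strand, exon 4 of 6): aggcacCTCgcccaggtcGGGGACagcatg
BAD (chr11:64271628-64271657, minus strand, exon 2 of 3): cgcgagCTCcggaggatgAGTGACgagttt
A search for 6 codons that read leucine, 3 codons other than proline, then glycine, alanine or serine, then aspartate matched all 10 coding sequences, once in each except BID, where the second of its matches is the known BH3 domain. The pattern is short, and 31.2% of 19527 human coding sequences hold it. The asparagine-tryptophan-glycine-arginine signature of the BH1 domain, held by 0.108% of those sequences, was present in the 5 members with several BH domains and not in the reading frame of the 5 BH3-only members.

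The targeted gene was lower in every library of both hairpins. Levels are given as CPM, the count of a gene scaled to the depth of its library, with the 3 values of a group in the order of replicates A, B and D. In sh-Control DDX41 was at 117, 115 and 113 CPM, falling to 12.2, 12.9 and 9.95 in shDDX41 #1 and to 38.9, 39.9 and 42.5 in shDDX41 #2. The 3 groups did not overlap, and the fall in mean CPM was -89.8% with shDDX41 #1 and -64.8% with shDDX41 #2 (adjusted p = 4.1e-12 and 7.04e-09). The 12 myeloid markers examined for MOLM13 summed to 2342 to 2399 CPM in sh-Control, 2395 to 2425 in shDDX41 #1 and 3275 to 3308 in shDDX41 #2, where lysozyme (LYZ) had a mean of 1818 CPM against 931 in sh-Control. Of these 12, only ANPEP had group means under 1 CPM, the 6 erythroid markers were at 0 in every library, and the 6 lymphoid and 6 epithelial or HEK293T markers summed to at most 3.27 and 19.4 CPM. Without LYZ the other 11 myeloid markers summed to 1411 to 1475 CPM in sh-Control, 1510 to 1559 in shDDX41 #1 and 1442 to 1494 in shDDX41 #2, so that the higher sum in shDDX41 #2 was that of LYZ, while the shDDX41 #1 libraries were above all controls. With each hairpin 5 of the 11 had a higher mean than in sh-Control and 6 a lower one. The part of LYZ, or of the other markers, in the results of either hairpin was not tested. Libraries held 16385238 to 20510032 counts. The shDDX41 #1 library D stood apart from its group, with a chi-square per degree of freedom of 17.7 and 19.2 against its partners. Those partners differed from each other by 2.91. The sh-Control pairs were also spread, at 8.05, 10.2 and 8.39, where the shDDX41 #2 pairs were at 2.46 to 3.26.

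Adjusted p-values are from edgeR's quasi-likelihood test on the counts, with Benjamini-Hochberg adjustment over all 12712 genes, and a gene was called at an adjusted p under 0.05. With shDDX41 #1, 5 of the 10 members rose (BCL2L1, BAX, BCL2L11, BBC3 and PMAIP1) and 2 fell (MCL1 and BID). Among all genes tested, 23.7% were called higher and 24.1% lower in that comparison. The median log2 fold change of the members was 0.22 against 0.01 over all genes, and the groups did not overlap for 7 members, where 53.1% of all genes had groups that did not overlap. Under upper quartile scaling, which places the median gene higher, none of the members was called lower, and 61.1% of called genes were higher against 49.5% under the scaling used here. In bulk RNA, a change in the share of cells that express a gene and a change in RNA per cell cannot be told apart.

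With shDDX41 #2, 3 members rose (BCL2, BAX and BCL2L11) and 2 fell (BAK1 and PMAIP1). Over all genes 11.6% were called higher and 13.4% lower, and the groups did not overlap for 6 members and for 43.8% of all genes. The member median was 0.06 on the log2 scale against -0.01 over all genes. Since 1 set of controls served for each hairpin, values of the hairpins against sh-Control are set side by side and are not independent of each other. Tested directly against each other, the hairpins differed for 5 members. BCL2L1, BBC3 and PMAIP1 were higher and BCL2 and MCL1 lower in shDDX41 #1, where 24.6% of all genes were called higher and 24.2% lower. The libraries of the hairpins did not overlap for 7 members, against 57.7% of all genes, and the member median was 0.06 against 0.01.

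**Figure D1:**
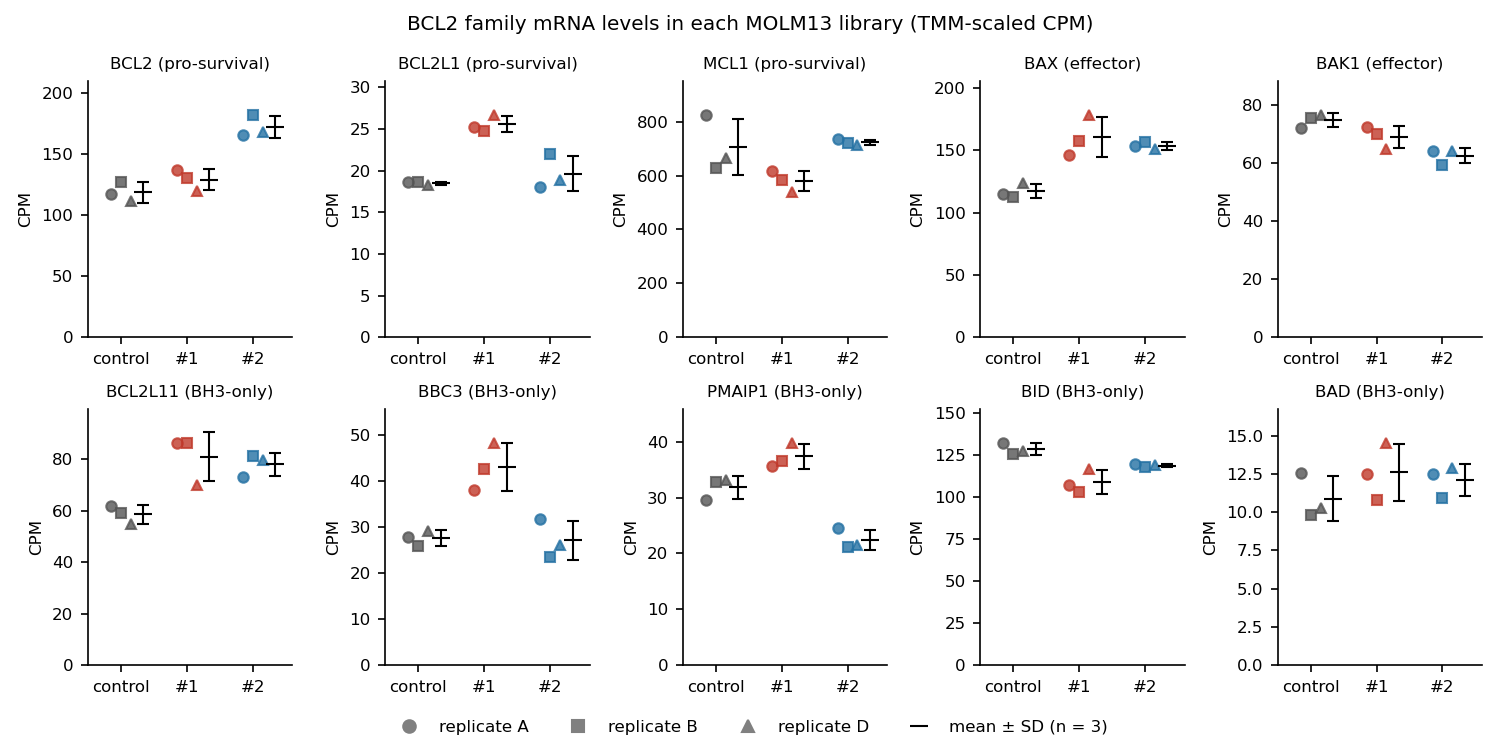
Level of each of the 10 genes in each library, in CPM on a linear axis from 0, with a marker shape for each replicate letter and the mean ± SD of 3 libraries beside them. BCL2 is highest in shDDX41 #2 and BCL2L1 and BBC3 in shDDX41 #1, while BAX and BCL2L11 are above sh-Control with both hairpins and PMAIP1 is above it with #1 and under it with #2.

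Among the pro-survival members, each gene took a different course. BCL2, the anti-apoptotic protein targeted by venetoclax, had 117, 127 and 111 CPM in sh-Control, 137, 131 and 120 in shDDX41 #1, and 165, 182 and 168 in shDDX41 #2. Every shDDX41 #2 library lay above all other libraries, while the sh-Control and shDDX41 #1 libraries overlapped. The mean was 172 ± 8.99 CPM with shDDX41 #2 against 118 ± 8.27 in sh-Control (SD, n = 3), a log2 fold change of 0.54 (SE 0.0729, adjusted p = 0.000102). With shDDX41 #1 the difference was 0.12 on the log2 scale, with a 95% interval of -0.03 to 0.28 (adjusted p = 0.178). BCL2 was thus lower in shDDX41 #1 than in shDDX41 #2 by a log2 difference of -0.41 (SE 0.0728, adjusted p = 0.000276). The small difference with shDDX41 #1 passed the threshold without library D of that group (0.19, adjusted p = 0.0318), under upper quartile scaling (0.20, adjusted p = 0.0309) and with GC and length offsets (0.16, adjusted p = 0.0231).

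BCL2L1, which encodes the pro-survival protein BCL-XL, was at 18.6, 18.6 and 18.2 CPM in sh-Control, at 25.3, 24.8 and 26.7 in shDDX41 #1, and at 18, 22.0 and 18.9 in shDDX41 #2. The shDDX41 #1 libraries were above all 6 others, and the shDDX41 #2 libraries spanned the sh-Control values. The gene rose by 38.5% with shDDX41 #1 (log2 fold change 0.47, SE 0.0922, adjusted p = 0.000706). With shDDX41 #2 the log2 difference was 0.09, with a 95% interval of -0.11 to 0.29 (adjusted p = 0.518), and the difference between hairpins was 0.38 (SE 0.0917, adjusted p = 0.00311). Splicing of BCL2L1 yields a long protective and a short pro-apoptotic form, which gene counts do not separate. The antisense gene ABALON overlaps 1224 of its 2859 exonic bases, so reads of either gene could count for the other if strand was not used.

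MCL1, a short-lived pro-survival protein, had by far the most counts of the family. Its level was 826, 629 and 666 CPM in sh-Control, 615, 583 and 540 in shDDX41 #1, and 735, 720 and 715 in shDDX41 #2. The shDDX41 #1 libraries were under all the others, and sh-Control library A was far above B and D. The log2 fold change with shDDX41 #1 was -0.29 (SE 0.0883, adjusted p = 0.0143). Without sh-Control library A it was -0.16 (adjusted p = 0.0772), and under upper quartile scaling -0.21 (adjusted p = 0.0637), so the call against sh-Control depended on both. Against shDDX41 #2 the difference was -0.32 (SE 0.0883, adjusted p = 0.00754). The means of that contrast do not involve sh-Control library A, but its SE and p come from the fit of all 9 libraries. It was called in each of the 18 alternatives. With shDDX41 #2 the difference from sh-Control was 0.03, with a 95% interval of -0.16 to 0.22 (adjusted p = 0.823).

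Of the effector genes, BAX was called higher with both hairpins and BAK1 lower with shDDX41 #2. BAX, whose protein is cytosolic until it is activated and inserts into the outer mitochondrial membrane, was at 115, 113 and 124 CPM in sh-Control, at 147, 158 and 179 in shDDX41 #1, and at 153, 157 and 151 in shDDX41 #2. All 6 knockdown libraries were above all 3 controls, and the hairpins overlapped each other. The log2 fold change was 0.46 with shDDX41 #1 (SE 0.0742, adjusted p = 0.00015) and 0.39 with shDDX41 #2 (SE 0.0741, adjusted p = 0.00151). Between the hairpins it was 0.07, with a 95% interval of -0.09 to 0.22 (adjusted p = 0.49). BAX was called against sh-Control with both hairpins in each of the 18 alternatives run.

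BAK1, the effector that resides on the mitochondrion, was at 72.2, 75.6 and 76.6 CPM in sh-Control, at 72.3, 69.9 and 64.9 in shDDX41 #1, and at 64.0, 59.4 and 64.1 in shDDX41 #2. The shDDX41 #2 libraries were under all 6 others, and shDDX41 #1 overlapped sh-Control in library A alone. The log2 fold change was -0.26 with shDDX41 #2 (SE 0.0667, adjusted p = 0.0109) and -0.12 with shDDX41 #1 (95% interval -0.26 to 0.03, adjusted p = 0.169). Without shDDX41 #2 library B the first of these became -0.22 (adjusted p = 0.0644). The hairpins differed by 0.14 (adjusted p = 0.0887), which became 0.19 without shDDX41 #1 library D and under upper quartile scaling (adjusted p = 0.0227 and 0.0293). The pseudogene GGNBP1 overlaps 91 exonic bases of BAK1 on the other strand.

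Among the BH3-only genes, BCL2L11 was called higher with both hairpins, and BBC3 and PMAIP1 differed between the hairpins. BCL2L11, which encodes BIM, an activator that binds every pro-survival member, was at 61.9, 59.0 and 54.8 CPM in sh-Control, at 86.4, 86.6 and 70.0 in shDDX41 #1, and at 73.1, 81.5 and 79.7 in shDDX41 #2. As with BAX, all 6 knockdown libraries were above the controls and the hairpins overlapped each other. The log2 fold change was 0.47 with shDDX41 #1 (SE 0.0862, adjusted p = 0.000426) and 0.41 with shDDX41 #2 (SE 0.086, adjusted p = 0.0028). The difference between hairpins was 0.05, with a 95% interval of -0.13 to 0.23 (adjusted p = 0.634). The long noncoding gene MIR4435-2HG overlaps 727 of the 6093 exonic bases of BCL2L11 on the opposite strand.

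BBC3 encodes PUMA, a potent BH3-only protein. It was at 27.8, 25.7 and 29.2 CPM in sh-Control, at 38.0, 42.6 and 48.3 in shDDX41 #1, and at 31.6, 23.5 and 26.0 in shDDX41 #2. Only shDDX41 #1 stood clear of the other groups. The gene rose by 55.7% in that group (log2 fold change 0.64, SE 0.11, adjusted p = 0.000242), which was the largest rise among the members in that comparison. With shDDX41 #2 the difference was -0.03, with a 95% interval of -0.27 to 0.21 (adjusted p = 0.873), and the hairpins differed by 0.67 (SE 0.11, adjusted p = 0.000153).

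PMAIP1 encodes NOXA, a BH3-only protein that binds chiefly MCL1 and promotes its degradation. It was at 29.5, 32.8 and 33.2 CPM in sh-Control, at 35.7, 36.5 and 39.9 in shDDX41 #1, and at 24.5, 21.1 and 21.6 in shDDX41 #2. The 3 groups did not overlap, with shDDX41 #1 above and shDDX41 #2 under sh-Control. With shDDX41 #2 the gene fell by 29.7% (log2 fold change -0.51, SE 0.0861, adjusted p = 0.000642). With shDDX41 #1 it rose by 17.4% (0.23, SE 0.0838, adjusted p = 0.0332), a call that was lost without sh-Control library A (0.18, adjusted p = 0.123) or shDDX41 #1 library D (0.19, adjusted p = 0.0736) and that grew to 0.40 with GC and length offsets. The direct difference between hairpins was 0.74 (SE 0.0859, adjusted p = 6.15e-06), the largest of the family. The transcript of PMAIP1 has the lowest GC content of the 10 members at 37.2%, and that of BBC3 the highest at 69.7%.

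BID, which links death receptors to mitochondria once it is cut by caspase-8, was at 132, 126 and 128 CPM in sh-Control, at 107, 103 and 116 in shDDX41 #1, and at 120, 118 and 119 in shDDX41 #2. The groups were ordered without overlap, shDDX41 #1 lowest and sh-Control highest. BID fell by 15.3% with shDDX41 #1 (log2 fold change -0.24, SE 0.0638, adjusted p = 0.00618), and under upper quartile scaling the value was -0.16 (adjusted p = 0.0507). With shDDX41 #2 the difference of -0.12 was not called (95% interval -0.25 to 0.02, adjusted p = 0.204). Between hairpins it was also -0.12 (adjusted p = 0.121), and it passed the threshold without shDDX41 #1 library D (-0.17, adjusted p = 0.0233) and with GC and length offsets (-0.15, adjusted p = 0.0357).

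BAD, a BH3-only protein whose activity is set mainly by phosphorylation, was at 12.5, 9.81 and 10.3 CPM in sh-Control, at 12.5, 10.8 and 14.6 in shDDX41 #1, and at 12.5, 10.9 and 12.9 in shDDX41 #2. All groups overlapped. The log2 difference from sh-Control was 0.21 with shDDX41 #1 (95% interval -0.08 to 0.50, adjusted p = 0.212) and 0.15 with shDDX41 #2 (-0.13 to 0.44, adjusted p = 0.438). The GPR137 gene overlaps 380 of its 1327 exonic bases on the opposite strand.

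**Figure D2:**
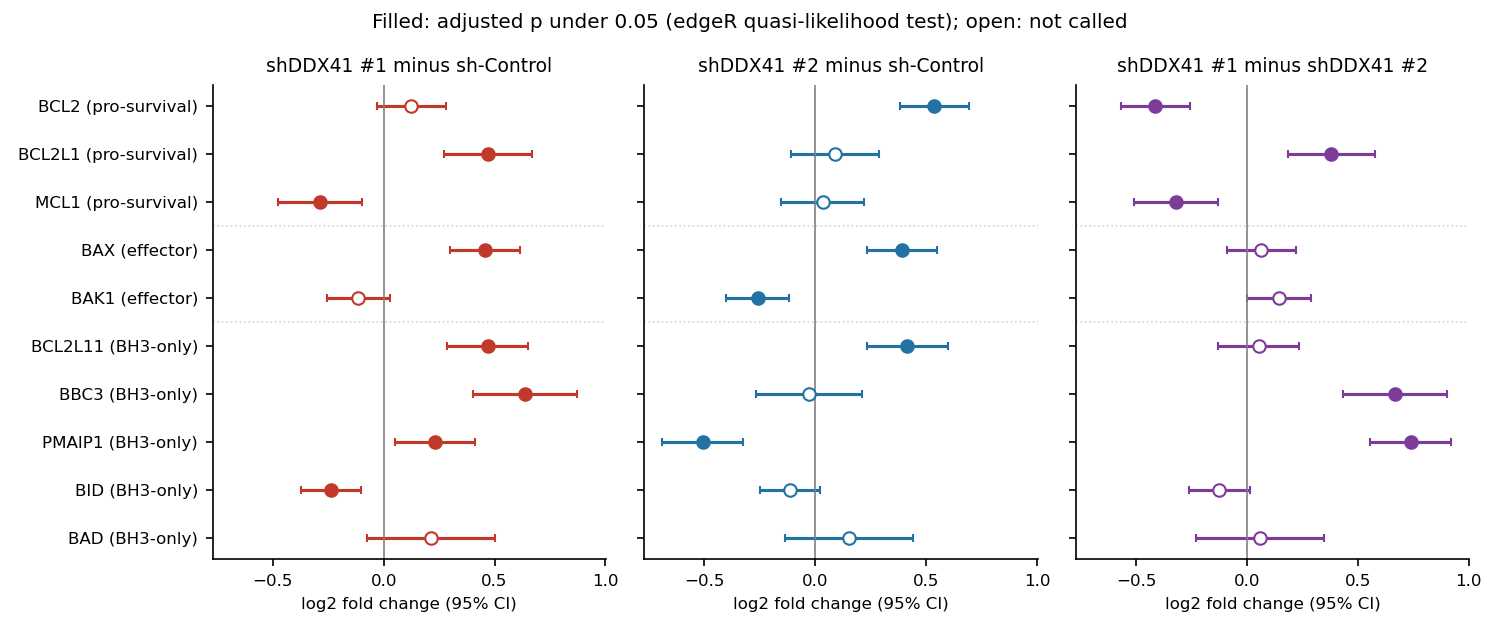
Log2 fold change of each gene with its 95% interval in the 3 comparisons, the first group named minus the second, with filled points where the adjusted p was under 0.05. BAX and BCL2L11 are filled and to the right of 0 with both hairpins, while PMAIP1 lies at 0.23 with #1 and at -0.51 with #2.

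To compare levels between genes, CPM was divided by the exonic length of each gene in kilobases. In sh-Control, MCL1 was highest at 173 CPM per kb, followed by BAX at 83.1, BID at 45.8 and BAK1 at 33.8. The remaining 6 genes lay between 15.2 (PMAIP1) and 6.46 (BCL2L1), in the order PMAIP1, BBC3, BCL2, BCL2L11, BAD and BCL2L1. Within each control library neighbours kept this order, except that BCL2 at 9.95 was under BCL2L11 at 10.2 in library A. Across the 3 control libraries, the ranges of BCL2 and BCL2L11 overlapped (9.47 to 10.9 against 9.0 to 10.2). Those of BCL2L11 and BAD (7.39 to 9.45) did so too. The first 4 places were the same in all groups. By group mean, BBC3 at 20.5 CPM per kb stood above PMAIP1 at 17.8 in shDDX41 #1, and BCL2L11 at 13.3 above BCL2 at 11.0. The ranges of both pairs overlapped across libraries, but within every shDDX41 #1 library BBC3 was above PMAIP1 and BCL2L11 above BCL2. In shDDX41 #2, BCL2 at 14.6 stood above BBC3 at 12.9, BCL2L11 at 12.8 and PMAIP1 at 10.7, and overlapped BBC3 alone (14.1 to 15.5 against 11.2 to 15.1). These values rest on one gene model per gene and say nothing of protein, since MCL1 in particular is turned over fast. For BCL2 that model has 11741 exonic bases, where its longest coding transcript has 7461. Its place in the order therefore depends on the length used, and the shorter length would place it higher.

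Ratios taken within a library do not depend on how libraries are scaled, and they are given as a description with no test. The count ratio of BAX to BCL2 was 0.987, 0.885 and 1.11 in sh-Control, 1.07, 1.21 and 1.49 in shDDX41 #1, and 0.927, 0.862 and 0.899 in shDDX41 #2. The hairpins did not overlap, and both overlapped sh-Control. Although BAX was higher with either hairpin, the ratio was above 1 in every library with shDDX41 #1 and under 1 in every library with shDDX41 #2, where BCL2 was higher as well. The mean log2 ratio in shDDX41 #1 was 0.31 with all 3 libraries and 0.19 without library D, the highest of the group. For BCL2L1 to MCL1, the ratio was 0.0225, 0.0295 and 0.0273 in sh-Control, 0.041, 0.0425 and 0.0494 in shDDX41 #1, and 0.0245, 0.0305 and 0.0264 in shDDX41 #2. The shDDX41 #1 libraries were above all 6 others, and shDDX41 #2 overlapped sh-Control.

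**Figure D3:**
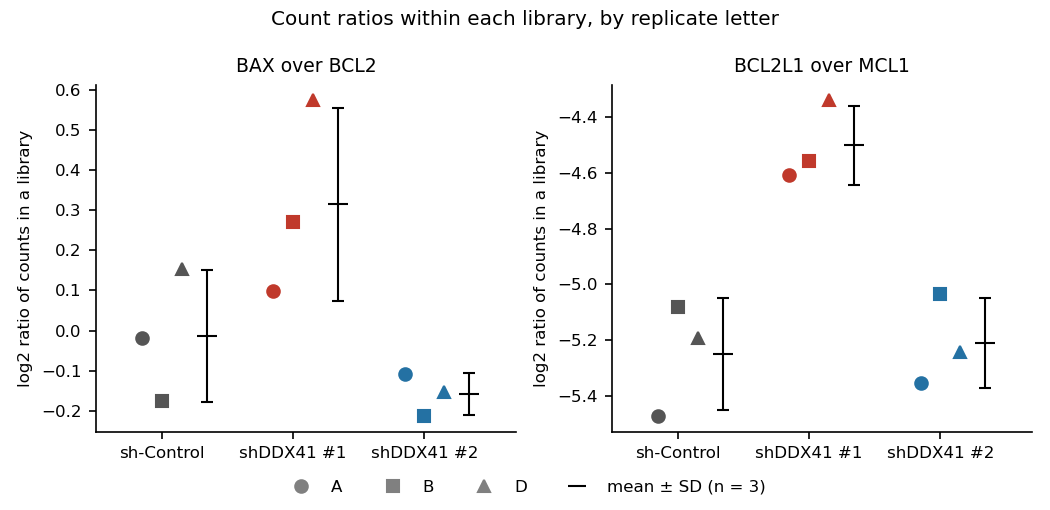
Log2 of the count ratio of BAX to BCL2 and of BCL2L1 to MCL1 in each library, with the mean ± SD of 3 libraries per group and axes that do not start at 0. The mean log2 ratio of BAX to BCL2 is -0.01 in sh-Control, 0.31 in shDDX41 #1 and -0.16 in shDDX41 #2, and that of BCL2L1 to MCL1 is -5.25, -4.50 and -5.21.

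The other genes of the pathway were taken from 6 lists, which had been drawn up with earlier results of these data known. Counts called in each list are to be read beside the shares over all tested genes. With shDDX41 #1 these shares were 23.7% higher and 24.1% lower, with a median log2 fold change of 0.01. With shDDX41 #2 they were 11.6% and 13.4%, with a median of -0.01. Of 17 further BCL2 homologs and BH3 proteins, 12 had enough counts to be tested. With shDDX41 #1, 3 of them rose and 3 fell, and with shDDX41 #2, 2 rose and 2 fell, with list medians of -0.05 and -0.01 on the log2 scale. BCL2L13, a mitochondrial BCL2-like protein, rose with shDDX41 #1 (log2 fold change 0.39, adjusted p = 0.000197) and with shDDX41 #2 (0.27, adjusted p = 0.00856). BNIP3, a mitophagy receptor with a BH3-like stretch, had means of 59.4 CPM in sh-Control, 35.4 in shDDX41 #1 and 30.3 in shDDX41 #2 and fell with both (-0.74 and -0.97, adjusted p = 8.25e-05 and 2.96e-05). The hairpins differed from each other by 0.22 for BNIP3, which was not called (adjusted p = 0.128).

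BNIP1, a membrane-trafficking protein with a BH3 domain, rose with shDDX41 #1 (0.57, adjusted p = 0.000246), and BCL2L12 fell (-0.49, adjusted p = 5.13e-05). Both also differed between the hairpins (0.72 and -0.55, adjusted p = 2.96e-05 and 1.63e-05). BMF, a BH3-only protein held at the dynein motor, had means of 73.5 CPM in sh-Control and 94.0 in shDDX41 #2 and rose there (0.36, adjusted p = 0.00702), with a value of -0.21 in shDDX41 #1 (adjusted p = 0.0624) and a difference between hairpins of -0.56 (adjusted p = 8.08e-05). BMF was called lower with shDDX41 #1 in 4 of the 18 alternatives, namely without sh-Control library D (-0.30, adjusted p = 0.00717), with GC and length offsets, with the replicate block and with no filter on low counts (adjusted p = 0.0128, 0.0174 and 0.0445). The pro-survival gene BCL2A1, at 2.64 CPM in sh-Control and 1.60 in shDDX41 #2, was called lower there (-0.73, adjusted p = 0.0231). That call was lost in 4 of the 6 fits that left out 1 library of those groups, namely sh-Control A or D and shDDX41 #2 A or B, with adjusted p up to 0.0985.

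In the list of the apoptosome, the caspases and released mitochondrial proteins, 18 genes were tested. The list also holds caspase-8 and other caspases outside the apoptosome, and channels of the outer membrane. Not all of it therefore lies downstream of the mitochondrion. With shDDX41 #1, 4 rose and 5 fell, and with shDDX41 #2, 1 rose and 3 fell. The list medians were -0.08 and -0.03. Of all genes, 23.7% rose and 24.1% fell with shDDX41 #1, and 11.6% and 13.4% with shDDX41 #2. CASP9, the initiator caspase of the apoptosome, had means of 17.8 CPM in sh-Control, 25.7 in shDDX41 #1 and 24 in shDDX41 #2 and rose with both (0.53 and 0.43, adjusted p = 0.00134 and 0.0114). DIABLO, a released protein that relieves caspase inhibition, rose with shDDX41 #1 (0.47, adjusted p = 0.000159). CYCS, which encodes cytochrome c, fell with shDDX41 #1 (-0.44, adjusted p = 0.000472) and with shDDX41 #2 (-0.31, adjusted p = 0.0129), and the hairpins differed by -0.13, which was not called (adjusted p = 0.194) except without shDDX41 #1 library D (-0.24, adjusted p = 0.00323). DFFB, the nuclease that cuts DNA in apoptosis, fell with shDDX41 #2 (-0.39, adjusted p = 0.0309).

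For shDDX41 #2, the call of CASP9 was lost without shDDX41 #2 library B (adjusted p = 0.0568) and that of CYCS was lost without shDDX41 #2 library D (adjusted p = 0.0602). DFFB was lost without any of the 3 sh-Control libraries or without shDDX41 #2 A or D, with adjusted p up to 0.126. With shDDX41 #1 DFFB was instead called higher (0.35, adjusted p = 0.0256), and that call was lost without sh-Control A or B or without shDDX41 #1 A or B (adjusted p up to 0.148).

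Of the 6 inhibitor of apoptosis genes tested, 3 fell and 0 rose with shDDX41 #1, with a list median of -0.41. With shDDX41 #2, 0 were called, with a median of 0.02. Over all genes, 24.1% were called lower with shDDX41 #1 and 13.4% with shDDX41 #2. BIRC2, which encodes the ubiquitin ligase cIAP1, was at 19.3 CPM in shDDX41 #1 against 35.1 in sh-Control (-0.86, adjusted p = 2.44e-06). BIRC5, which encodes survivin, a protein also needed for mitosis, was at 74.0 against 115 CPM (-0.64, adjusted p = 2.93e-06). In shDDX41 #2 their values were -0.22 and -0.04 (adjusted p = 0.0804 and 0.733), and the hairpins differed for both (adjusted p = 4.09e-05 and 5.12e-06). Without sh-Control library A, BIRC2 was also called lower with shDDX41 #2 (-0.30, adjusted p = 0.0233).

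The death receptor list held receptors, their ligands, and adaptors and regulators of their signal. Of its 11 tested genes, 3 rose and 0 fell with shDDX41 #1, and 1 rose and 0 fell with shDDX41 #2. Of all genes, 23.7% and 11.6% were called higher in these comparisons. The list medians were 0.19 and 0.11. In this list the count higher with shDDX41 #1 was 6 under upper quartile scaling and 5 without shDDX41 #1 library D. That with shDDX41 #2 ranged from 0 to 2 over the alternatives. TNFRSF10B, the TRAIL receptor DR5, had a mean of 198 ± 25.2 CPM in shDDX41 #1 against 133 ± 6.26 in sh-Control (0.58, adjusted p = 6.41e-05). TNFRSF10D, a decoy receptor for TRAIL, was at 56.1 ± 3.64 against 33.6 ± 1.20 CPM (0.74, adjusted p = 1.04e-06). With shDDX41 #2 the values were -0.14 and -0.15 (adjusted p = 0.246 and 0.148), and both genes differed between hairpins (0.72 and 0.89, adjusted p = 7.83e-06 and 1.82e-07). CFLAR, which encodes the caspase-8 inhibitor FLIP and not a receptor, was the 1 gene called higher with shDDX41 #2 (0.26, adjusted p = 0.0152). The CFLAR call was lost without sh-Control B or without shDDX41 #2 A or D (adjusted p up to 0.0598) and with GC and length offsets.

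**Figure D4:**
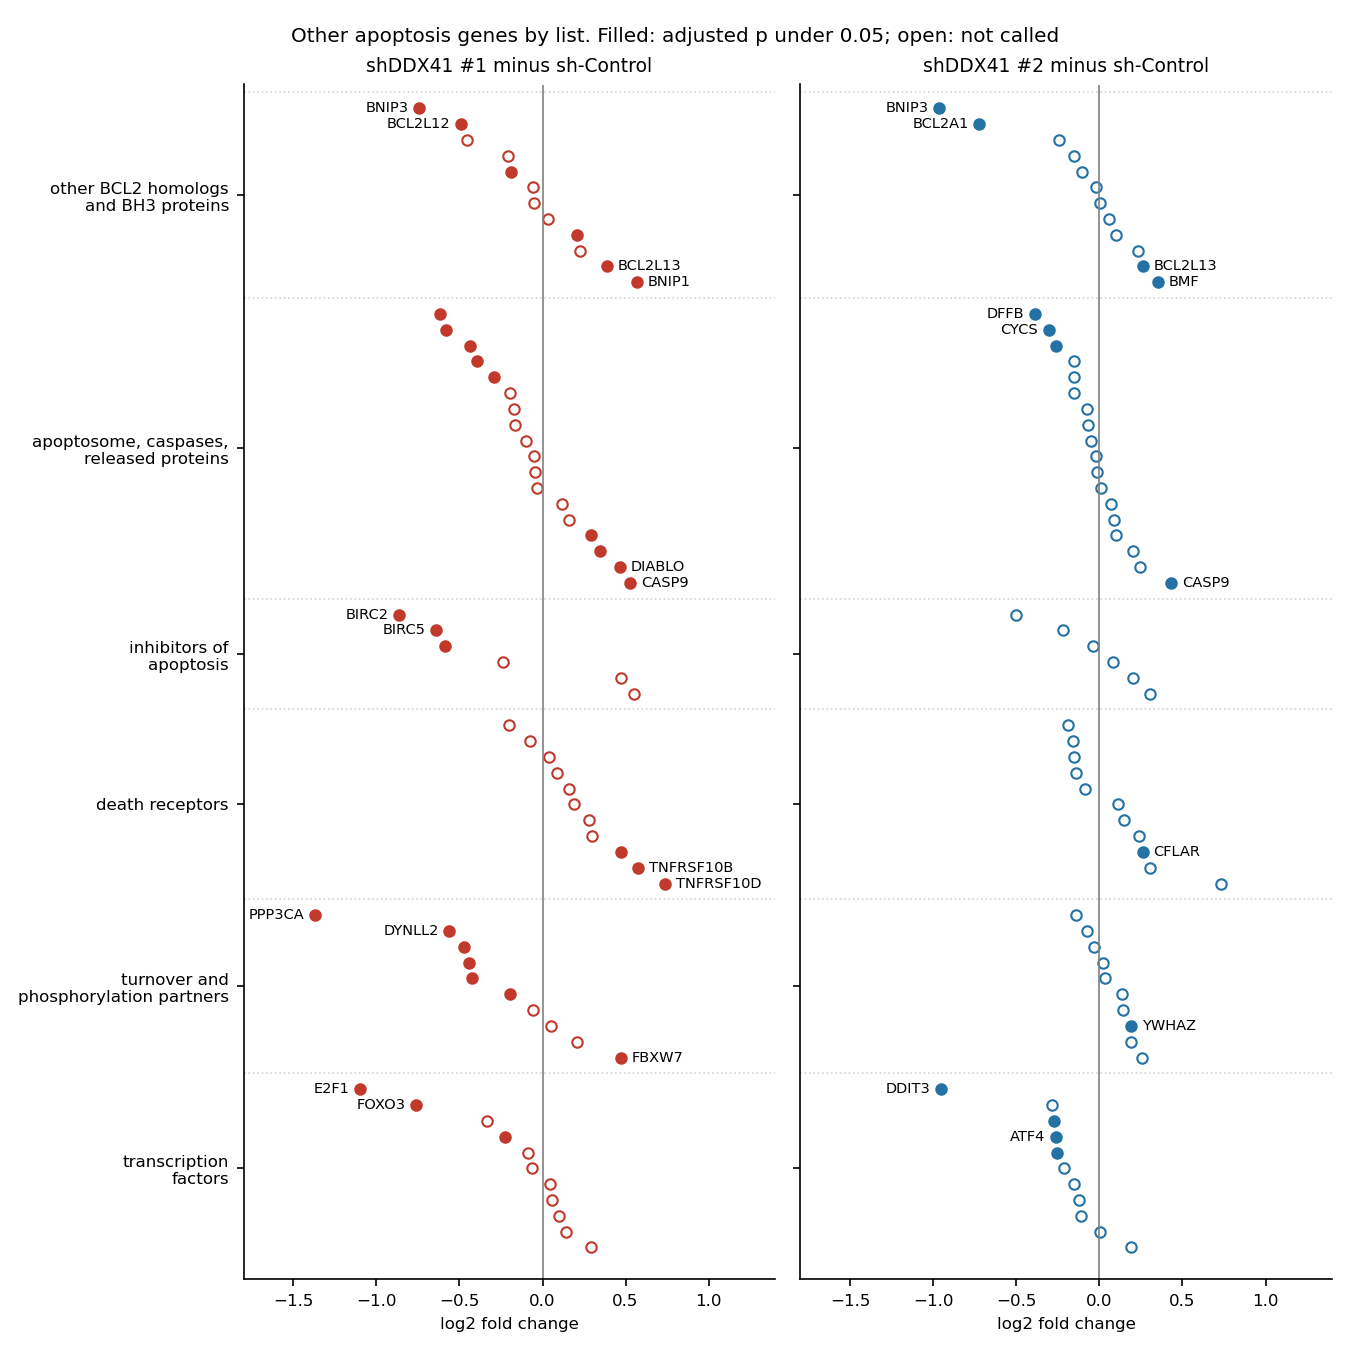
Log2 fold change of the other apoptosis genes that were tested, by list and sorted within each list, for each hairpin against sh-Control. Filled points had an adjusted p under 0.05. Symbols are given only for called genes with the smallest adjusted p of their list in that comparison, at most 2 in each direction. Other genes that the text describes carry none. PPP3CA at -1.37 and E2F1 at -1.10 lie farthest from 0 in shDDX41 #1, and BNIP3 at -0.97 and DDIT3 at -0.96 in shDDX41 #2.

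The next list held genes for proteins that set the stability or phosphorylation of family members or that bind them, as dynein light chains and 14-3-3 proteins do. Of 10 tested, 6 fell and 1 rose with shDDX41 #1, with a median of -0.31. With shDDX41 #2, 1 rose and 0 fell, with a median of 0.08. Over all genes, 24.1% fell and 23.7% rose with shDDX41 #1, and 13.4% fell and 11.6% rose with shDDX41 #2. PPP3CA, the catalytic subunit of calcineurin, which can dephosphorylate BAD, was at 19.5 ± 0.723 CPM against 50.4 ± 4.06 in sh-Control (-1.37, adjusted p = 7.69e-09) and at 49.2 ± 1.51 in shDDX41 #2 (adjusted p = 0.771), and the hairpins differed by -1.33 (adjusted p = 9.73e-09). DYNLL2, the dynein light chain that binds BMF, also fell with shDDX41 #1 (-0.56, adjusted p = 1.47e-05). FBXW7, the substrate receptor of a ubiquitin ligase that acts on MCL1, rose (0.48, adjusted p = 0.00017). YWHAZ, a 14-3-3 protein that holds phosphorylated BAD, was called higher with shDDX41 #2 (0.19, adjusted p = 0.0467), and this call was lost without any of the 6 libraries compared (adjusted p 0.07 to 0.18).

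Of 11 tested transcription factors known to act on BCL2 family genes, 3 fell and 0 rose with shDDX41 #1. With shDDX41 #2, 4 fell and 0 rose, and the medians were -0.07 and -0.21. Under upper quartile scaling 2 of them rose with shDDX41 #1. The shares of all genes called lower were 24.1% with shDDX41 #1 and 13.4% with shDDX41 #2. E2F1, which drives entry into S phase, was at 18.6 ± 0.528 CPM in shDDX41 #1 against 39.9 ± 2.54 in sh-Control (-1.10, adjusted p = 7.63e-08). FOXO3, a known activator of BCL2L11 and BBC3, fell from 96.0 ± 14.9 to 56.6 ± 3.37 CPM in the same comparison (-0.76, adjusted p = 1.35e-05). With shDDX41 #2, E2F1 and FOXO3 were at -0.21 and -0.12 (adjusted p = 0.0543 and 0.376). They were called lower there in 3 and 1 of the 18 alternatives. Between hairpins both differed (-0.89 and -0.64, adjusted p = 6.44e-07 and 6.17e-05). A link of any factor in this list to the levels of the members was not tested. DDIT3, the stress-induced factor CHOP, was at 11.4 ± 2.03 CPM in shDDX41 #2 against 22.2 ± 1.58 in sh-Control (-0.96, adjusted p = 0.000114), and ATF4, which acts upstream of it and on PMAIP1, was at 540 ± 22.4 against 647 ± 22.7 (-0.26, adjusted p = 0.0121). Their values with shDDX41 #1 were 0.29 and 0.14 (adjusted p = 0.065 and 0.102), and the hairpins differed for both (1.25 and 0.40, adjusted p = 2.31e-06 and 0.000212). With shDDX41 #1, DDIT3 was called higher in 4 of the 18 alternatives, namely without shDDX41 #1 library B (0.40, adjusted p = 0.021), under upper quartile scaling (0.37, adjusted p = 0.025), with no filter on low counts and with the replicate block (adjusted p = 0.0312 and 0.0396), and ATF4 in 1, under upper quartile scaling (0.22, adjusted p = 0.0203). The ATF4 call with shDDX41 #2 was lost without shDDX41 #2 library B or D (adjusted p up to 0.0624).

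The genes whose levels followed most closely those of the strongest member were listed by Pearson correlation of log2 CPM over the 9 libraries, as a description. The 9 points share the group means, so genes that differ between the groups in the same way score high. For BAX, the member with the smallest adjusted p with shDDX41 #1, these were PCMTD2 (r = 0.989), ARPC3 (r = 0.988) and PPCS (r = 0.986). ARPC3, a subunit of the actin-nucleating ARP2/3 complex, ranged from 277 to 295 CPM in sh-Control and from 399 to 482 in the knockdown libraries. For BCL2, the member with the smallest adjusted p with shDDX41 #2, they were CLCN7 (r = 0.99), ANKRD33B (r = 0.984) and KIF3B (r = 0.974). ANKRD33B ranged from 56.7 to 65.0 CPM in sh-Control, from 63.2 to 85.2 in shDDX41 #1 and from 119 to 139 in shDDX41 #2.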

How the data were processed

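Bulk mRNA sequencing of sorted MOLM13 cells was analysed from the deposited table, which holds whole-number counts per gene made by the authors, not normalized, in 1 column per library. The submitters' processing notes name FastQC 0.11.7, HISAT2 2.0.5 and featureCounts 1.5.2 and the build hg38. The annotation and the strand setting of the counting are not given in the sources used here. The labels name a stranded library kit and the study's methods an unstranded kit, so counts of genes with a neighbour on the other strand are uncertain. No columns of the table were left unmapped and 0 rows lacked a gene name.

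The 10 members, the 6 pathway lists and the marker lists were chosen with earlier results of these data known. Genes were kept by filterByExpr of edgeR 4.0.16 (R 4.3.3) with a minimum count of 10, which left 12712 genes. Libraries were scaled by TMM, all 9 libraries were fitted together with 1 mean per group, and 3 contrasts were tested by the quasi-likelihood F test with Benjamini-Hochberg adjustment and a threshold of 0.05. Standard errors were the log2 fold change over the square root of F, and 95% intervals use the t distribution. CPM values use the TMM-scaled totals. An exact two-sided permutation test on 3 against 3 libraries cannot go under p = 0.1, so none is used for a call. Depth was 16385238 to 20510032 counts per library. The pipeline was tested on simulated data.

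Named genes were all members and DDX41, in each list the called genes with the smallest adjusted p in each direction (at most 2) for each hairpin, and for the strongest member per hairpin the 3 genes with the highest correlation. Some items that this rule names are not reported here. A few others are named for values seen in the data: ANPEP, LYZ and the overlapping genes. Gene models, transcript GC content and coding bases are from GENCODE v29. Alternatives were other scalings, no filter, limma voom (limma 3.58.1), DESeq2 1.42.0, a fit of 6 libraries, a replicate block and leaving out each library. GC and length offsets were added after seeing the data. Of 9 same-letter pairs, 2 had deviations correlated above 0.1 (-0.06 to 0.24). Between sh-Control and shDDX41 #1 the letters A, B and D gave 0.07, 0.16 and 0.24, and unlike letters -0.18 to 0.07. Same-letter pairs with shDDX41 #2 lay between -0.06 and 0.02. Whether the letters pair the libraries is thus not settled, and the main fit did not use them.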

Additional observations from a re-analysis of the deposited data

Results flagged for a closer look

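MCL1, BBC3 and PMAIP1 were picked out because their responses to the hairpins had opposite signs against the shared sh-Control libraries and the hairpins differed from each other by edgeR's quasi-likelihood test with Benjamini-Hochberg adjustment. For MCL1 the log2 difference of shDDX41 #1 minus shDDX41 #2 was -0.32 (adjusted p = 0.00754), lower in 3 of 3 libraries, with -0.29 and 0.03 against sh-Control. For BBC3 it was 0.67 (adjusted p = 0.000153), with 0.64 and -0.03 against sh-Control. For PMAIP1 it was 0.74 (adjusted p = 6.15e-06), with 0.23 and -0.51 against sh-Control. Both sides of the contrast with sh-Control were called for PMAIP1, while for MCL1 and BBC3 the shDDX41 #2 side was not.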

How the results depend on the processing

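Of 540 member values under 18 alternatives, 515 kept their direction and their side of the threshold, 6 lost the call, 7 gained one and 12 turned sign, all 12 in differences that were not called. Upper quartile scaling took the members called lower with shDDX41 #1 from 2 to 0. Leaving out each library gave 4 to 5 members called higher and 1 to 2 called lower with shDDX41 #1. With shDDX41 #2 it gave 3 higher and 1 to 2 lower, and between hairpins 3 to 4 higher and 2 to 3 lower. Called genes in all with shDDX41 #2 ranged from 2054 to 4248 against 3174. The lowest count was without shDDX41 #2 library B and the highest without shDDX41 #1 library D.

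The differences that turned sign were all small. With shDDX41 #2, BBC3 was at 0.0037 under upper quartile scaling and at 0.054 with GC and length offsets. In the same comparison, leaving out each library in turn gave ranges of -0.041 to 0.16 for MCL1, -0.16 to 0.063 for BBC3, -0.0027 to 0.15 for BCL2L1, -0.086 to 0.0057 for BIRC5 and -0.0697 to 0.039 for PPP3CA. With shDDX41 #1, YWHAZ turned to 0.021 under upper quartile scaling and 0.074 with GC and length offsets, and CFLAR ranged from -0.00086 to 0.13 without each library. Between hairpins, BAD turned to -0.0299 with GC and length offsets, and without each library the ranges were -0.055 to 0.16 for BAD, -0.014 to 0.12 for BAX and -0.00012 to 0.15 for BCL2L11. The cause was not tested. The replicate block, with the letters as a term, gave 6351, 3570 and 6503 called genes in the comparisons of shDDX41 #1, of shDDX41 #2 and between hairpins (6078, 3174 and 6204 without it), with 5 higher and 2 lower, 3 and 2, and 3 and 2 members, and changed no member's call.

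Counts over the other apoptosis lists also moved. The apoptosome list had 3 genes called lower with shDDX41 #2, but 1 without sh-Control A, B or D or without shDDX41 #2 A, and 0 without shDDX41 #2 D, and in the same comparison the transcription factors called lower went from 4 to 2 without shDDX41 #2 B and to 1 without D. When no filter on low counts was used, 5 further BCL2 homologs were called lower for shDDX41 #1 (3 with the filter) and 4 for shDDX41 #2 (2 with it). Under upper quartile scaling, 1 inhibitor of apoptosis gene was called higher with shDDX41 #1 against 0.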
